A study of Mus musculus with 6 samples.

Results

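The genes described here encode receptors of innate immunity in mouse bone marrow stromal colonies. They are the Toll-like receptors, the C-type lectins of the Clec family, the Fc-gamma receptors, the CD300 and Siglec families, and a set of partners and related receptors, namely Fcer1g, Tyrobp, Trem2, Msr1, Marco, Cd36, Cd14, Ly86, Ly96, Cd180, Myd88, Nlrp3, Nod1 and Nod2. The rule uses gene names and no measured value, though it was drawn up with earlier results of these data known, and 55 of the 14735 genes in the table met the rule. Bulk RNA-seq had been carried out on 6 colony-forming unit – fibroblastic (CFU-F) colonies, 3 tdTOMATO+ and 3 tdTOMATO-. All 6 came from hind-limb marrow of 2-month-old C57BL/6 mice carrying both Col10a1-Cre and R26-tdTomato, so the tdTOMATO- colonies carried the same alleles as the tdTOMATO+ colonies and differed by fluorescence. Col10a1-Cre is active in hypertrophic chondrocytes of the growth plate, and tdTOMATO then stays on in their descendants. Cells were plated at clonal density under low oxygen, a single colony was enclosed in a cloning cylinder at day 10, and each library holds the RNA of everything inside that cylinder, with no sort for cell type. Nothing states whether the 3 colonies of a group came from different mice, so p-values measure the spread between these colonies. The question here is which receptor genes differed between the tdTOMATO+ and the tdTOMATO- colonies, and whether members known from myeloid cells differed in the same way as members known from stroma or from many cell types.

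Innate receptors recognise microbial products, antibody-coated particles or altered self molecules. Toll-like receptors signal through adaptors such as MyD88, whereas many C-type lectins, Fc receptors and TREM or CD300 receptors have no signalling tail of their own and rely on Fcer1g or Tyrobp, small membrane adaptors that carry immunoreceptor tyrosine-based activation motifs (ITAMs). Most of these genes are expressed in macrophages, monocytes and other myeloid cells. A few are expressed in stroma as well, and Clec11a, which encodes the secreted growth factor osteolectin, is known from bone marrow stromal cells. By this textbook knowledge 39 of the members were classed as myeloid, 11 as broadly expressed, 1 as stromal (Clec11a), 2 as endothelial (Clec14a and Cd300lg) and 2 as neither (Clec2g and Siglecg).

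Each library held 24085516 to 31046589 reads in genes, and a normalized count is the number of reads in a gene divided by a size factor of the library. The test was limma, applied to log2(normalized count + 1), and a gene is called where its p, two-sided and adjusted over all 14735 genes, is under 0.05. The stromal markers Pdgfra, Pdgfrb, Col1a1, Col1a2, Col3a1, Cxcl12 and Lepr, a sum made up mostly of Col1a1 and Col1a2, came to 1048390 to 1310430 normalized counts in tdTOMATO+ colonies, against 1256320 to 1433020 in tdTOMATO- colonies. Of these 7, 0 were called with limma or edgeR and 1 with DESeq2, and at an unadjusted p under 0.05 with limma Lepr was higher and Col3a1 lower. Lepr, the leptin receptor of marrow stroma, had 408, 354 and 1132 normalized counts in tdTOMATO+ colonies, against 97.3, 69.4 and 108 in tdTOMATO- colonies, without overlap (adjusted p = 0.0647 with limma and 4.73e-09 with DESeq2). Also present in every colony were macrophage markers that are not members (Cd68, Csf1r, Emr1, Lyz2, C1qa, C1qb, C1qc, Mertk, Mpeg1 and Aif1), which summed to 62994 to 67247 normalized counts in tdTOMATO+ colonies, against 36234 to 37195 in tdTOMATO- colonies. Of these 10 markers, 9 were called with limma, 8 with edgeR and 9 with DESeq2, against 1.2%, 1.11% and 3.41% of all genes called higher, and all 10 had a higher mean in tdTOMATO+ colonies, by 1.48-fold to 2.18-fold. With tdTOMATO+ replicate 1 or tdTOMATO+ replicate 2 left out limma called 1 of them, Cd68, with tdTOMATO- replicate 2 left out it called 2, and with any other colony left out 7 to 8. With limma run without its mean-variance trend, 0 of the 10 were called and all 10 had an unadjusted p under 0.05. Of 6 osteoclast markers, 4 were without overlap and higher in tdTOMATO+ colonies, against 9.89% of all genes, and the median log2 fold change of the list was 2.39. Ctsk, by far the most abundant of the 6, overlapped between the groups, with a log2 fold change of -0.05. It had 2276, 2154 and 2743 normalized counts in tdTOMATO+ colonies, against 2852, 2404 and 2196 in tdTOMATO- colonies. The summed list overlapped too, at 2455 to 3118 in tdTOMATO+ colonies, against 2302 to 2907 in tdTOMATO- colonies. Atp6v0d2 (85.6, 26.6 and 38.2 normalized counts in tdTOMATO+ colonies, against 8.01, 4.82 and 5.01 in tdTOMATO- colonies) was called with limma and DESeq2, and of the fits with a colony left out only that without tdTOMATO- replicate 1 kept the limma call. Acp5 had 210.3, 83.2 and 95.5 in tdTOMATO+ colonies, against 41.2, 35.7 and 26.1 in tdTOMATO- colonies, and was called with DESeq2 alone. Mmp9, with 514, 181 and 151 in tdTOMATO+ colonies, against 4.58, 6.75 and 75.2 in tdTOMATO- colonies, was called by no tool with all colonies, and Dcstamp was scarce. The part of these cell types in the differences of the members was not tested, apart from the comparison with the macrophage markers given further on. Of marker genes of other blood cells, the table used here lists 2 of 8 neutrophil, 0 of 5 T and NK cell and 1 of 4 B cell markers. It also lists 3 of 6 dendritic, 1 of 4 mast cell and basophil and 3 of 4 megakaryocyte markers. The megakaryocyte markers, mostly Pf4, summed to 1180 to 1971 normalized counts in tdTOMATO+ colonies, against 928 to 1144 in tdTOMATO- colonies. Mcpt8, the basophil marker, had 123 to 282, against 81.3 to 241.

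The summed level of the myeloid members was higher in tdTOMATO+ colonies, and 38 of the 39 had a log2 fold change above 0. Summed over the 39 myeloid members, normalized counts were 23237, 23477 and 19393 in tdTOMATO+ colonies, against 13163, 13519 and 13806 in tdTOMATO- colonies, a ratio of means of 1.63. The lowest tdTOMATO+ colony was thus above the highest tdTOMATO- colony. In a bulk library, more cells of a type and more RNA per cell cannot be told apart, and this holds for every difference given here. With limma, 12 of the 55 members were called higher in tdTOMATO+ colonies at an adjusted p under 0.05, against 1.2% of all genes. None was called lower by limma, edgeR or DESeq2, and none of them fell even at an unadjusted p under 0.05. The log2 fold change was above 0 in 49 of the 55 members, against 49.0% of all genes, and its median was 0.59 over the members, against -0.00 over all genes. In 29 members every tdTOMATO+ colony lay above every tdTOMATO- colony, against 9.89% of all genes. Of the 12 called members, 11 were myeloid and the other was Cd36. All 11 stood among the 31 myeloid members whose mean over the colonies was 50 normalized counts or more, of which 31 had a log2 fold change above 0 and 25 did not overlap between the groups. Of the 8 myeloid members with a lower mean, 0 were called by limma, edgeR or DESeq2, and 0 had an unadjusted p under 0.05 with limma.

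**Figure D1:**
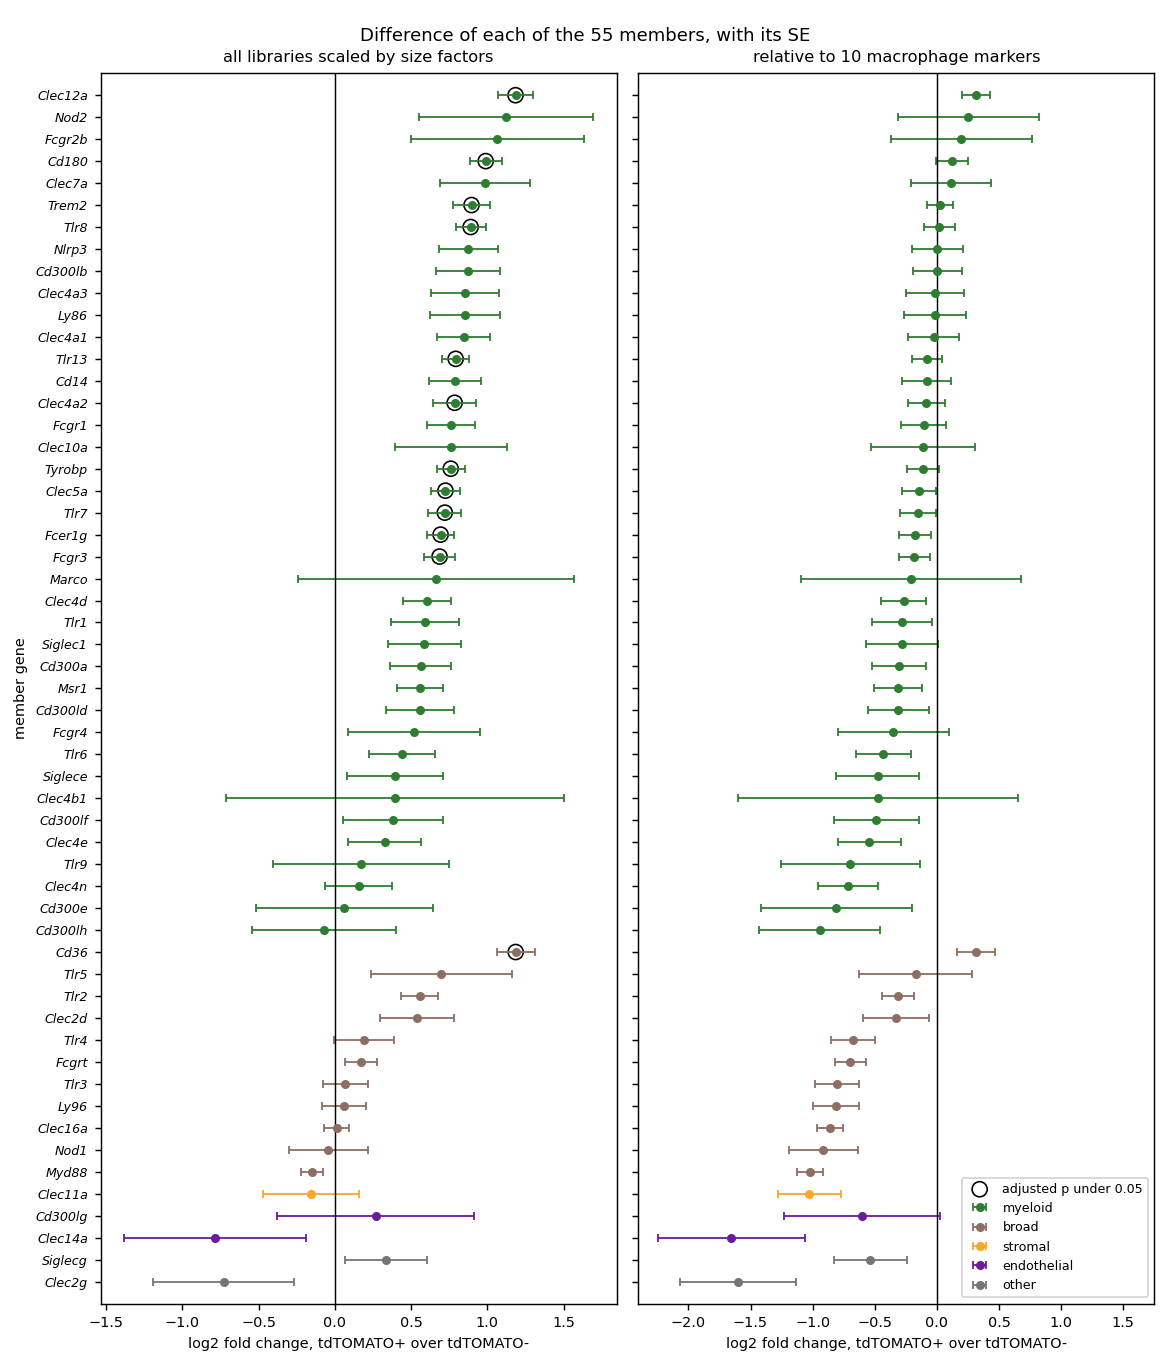
Each row is a member, ordered by class and then by size. The left panel gives the log2 fold change of tdTOMATO+ over tdTOMATO- colonies with its SE (bars), and circles mark the 12 members called with limma. The right panel gives the same after each colony was set relative to its 10 macrophage markers. Of the 39 myeloid members 38 lie right of 0 on the left panel, with a median of 0.72 over all 39, and move to a median of -0.15 on the right panel, where most broad members and Clec11a lie further left. By its construction a gene that does not differ between the groups lies left of 0 on the right panel. The median over all genes there is -0.87.

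Both ITAM adaptors rose. Tyrobp (DAP12), the partner of Trem2 and Clec5a, had 1653, 1522 and 1433 normalized counts in tdTOMATO+ colonies, against 831, 894 and 998 in tdTOMATO- colonies, a log2 fold change of 0.76 ± 0.093 (SE) with a limma adjusted p of 0.0152. Fcer1g, the common gamma chain of the Fc receptors, had 1315, 1322 and 1156 normalized counts in tdTOMATO+ colonies, against 743, 755 and 846 in tdTOMATO- colonies, with a log2 fold change of 0.69 ± 0.089 (SE) and an adjusted p of 0.0173. Neither adaptor overlapped between the groups, and the ratios of means were 1.69 and 1.62. Per kilobase of exon these were the most abundant members in tdTOMATO+ colonies, with 2303 normalized counts per kb for Tyrobp in tdTOMATO+ colonies, against 1361 in tdTOMATO- colonies, and 1446 for Fcer1g, against 894. In tdTOMATO- colonies Fcgrt, at 1005 per kb, stood between them.

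Among the Fc receptors, Fcgr3 rose. This low-affinity activating receptor for IgG had 1889, 1961 and 1544 normalized counts in tdTOMATO+ colonies, against 1185, 1095 and 1056 in tdTOMATO- colonies, with a log2 fold change of 0.69 ± 0.10 (SE) and an adjusted p of 0.0267. Of its 50-base stretches, 9.58% also occur in other genes. Fcgr1, the high-affinity IgG receptor, did not overlap between the groups, with 223, 253 and 299 normalized counts in tdTOMATO+ colonies, against 141, 169 and 144 in tdTOMATO- colonies, yet missed the threshold with limma (adjusted p = 0.0716) and passed it with DESeq2 (0.00337). The inhibitory receptor Fcgr2b had 428, 652 and 410.0 normalized counts in tdTOMATO+ colonies, against 340.1, 381 and 95.2 in tdTOMATO- colonies. Its log2 fold change of 1.07 ± 0.57 (SE) was larger than that of Fcgr3 but rested on a single low tdTOMATO- colony, replicate 3, and did not pass (adjusted p = 0.540). Without that colony it was 0.43. Fcgr4 was low in all colonies, at 23.1 to 73.8 normalized counts in tdTOMATO+ colonies and 29.9 to 36.1 in tdTOMATO- colonies, and its groups overlapped.

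Trem2, a lipid-sensing receptor of macrophages and osteoclast precursors that signals through Tyrobp, had 1134, 989 and 1211 normalized counts in tdTOMATO+ colonies, against 685, 524 and 585 in tdTOMATO- colonies. It rose by 0.90 ± 0.12 (SE) on the log2 scale (adjusted p = 0.0197). In the limma fit described above, on all colonies, no CD300 gene was called. The nearest was Cd300lb, an activating receptor that pairs with Tyrobp, with 753, 578 and 476 normalized counts in tdTOMATO+ colonies, against 404, 317 and 262 in tdTOMATO- colonies, with an adjusted p of 0.131, and it was called with DESeq2 (adjusted p = 0.00425). Cd300a, an inhibitory receptor, did not overlap either and had a log2 fold change of 0.56 ± 0.20 (SE). The remaining myeloid CD300 genes, Cd300ld, Cd300lf, Cd300e and Cd300lh, overlapped between the groups, with log2 fold changes of 0.56, 0.38, 0.06 and -0.07. Cd300lh is uncertain, since 82.1% of its 50-base stretches occur in other genes.

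The C-type lectins held the myeloid member with the largest log2 fold change. Clec12a, an inhibitory receptor of myeloid cells that senses uric acid crystals, had 749, 726 and 783 normalized counts in tdTOMATO+ colonies, against 376, 290.2 and 331 in tdTOMATO- colonies. The tdTOMATO+ colonies lay within a narrow range, the ratio of means was 2.27 and the log2 fold change was 1.18 ± 0.11 (SE, adjusted p = 0.0135). Clec5a, which couples to Tyrobp, had 413, 394 and 391 normalized counts in tdTOMATO+ colonies, against 235, 248 and 242 in tdTOMATO- colonies, a log2 fold change of 0.73 ± 0.096 (SE) with an adjusted p of 0.0193. Clec4a2, an inhibitory lectin of the DCIR group, had 347, 333 and 292 normalized counts in tdTOMATO+ colonies, against 214, 184 and 166 in tdTOMATO- colonies, and of the called members it lay closest to the threshold (adjusted p = 0.0465). Its neighbours in the Clec4 cluster on chromosome 6, Clec4a1 and Clec4a3, had log2 fold changes of the same size, 0.84 and 0.85, with no overlap between the groups, but missed the threshold with limma at adjusted p = 0.0691 and 0.155, and passed it with DESeq2 at 0.00377 and 0.0443.

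The lectins that recognise fungal and mycobacterial surfaces did not pass with limma or edgeR. Clec7a (Dectin-1), the receptor for beta-glucan, had 85.6, 142 and 77.4 normalized counts in tdTOMATO+ colonies, against 46.9, 40.5 and 62.1 in tdTOMATO- colonies, with an adjusted p of 0.209. Clec4d had 985, 906 and 713 normalized counts in tdTOMATO+ colonies, against 543, 678 and 493 in tdTOMATO- colonies, without overlap, and an adjusted p of 0.157 with limma and 0.0209 with DESeq2. Its partner Clec4e (Mincle) had 394, 341 and 202 normalized counts in tdTOMATO+ colonies, against 238, 231 and 249.6 in tdTOMATO- colonies, and Clec4n (Dectin-2) had 142, 163 and 96.5 normalized counts in tdTOMATO+ colonies, against 125, 119 and 109 in tdTOMATO- colonies. In both of these genes tdTOMATO+ replicate 3 was the lowest of all 6 colonies, and the log2 fold changes were 0.33 and 0.16. Clec10a and Clec4b1 were scarce, with at most 17.5 normalized counts in any colony.

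Of the 4 myeloid receptors for nucleic acids in endosomes, 3 rose, with narrow spread. Tlr13, a sensor of bacterial ribosomal RNA, had 1496, 1484 and 1398 normalized counts in tdTOMATO+ colonies, against 814, 939.9 and 779.8 in tdTOMATO- colonies, a log2 fold change of 0.79 ± 0.088 (SE, adjusted p = 0.0135). Tlr8 had 499, 480.2 and 489 normalized counts in tdTOMATO+ colonies, against 274, 275 and 244 in tdTOMATO- colonies, a log2 fold change of 0.89 ± 0.098 (SE, adjusted p = 0.0135), and Tlr7, a receptor for single-stranded RNA and the neighbour of Tlr8 on the X chromosome, had 561, 539 and 558 normalized counts in tdTOMATO+ colonies, against 302, 378 and 329 in tdTOMATO- colonies, a log2 fold change of 0.72 ± 0.11 (SE, adjusted p = 0.0256). In none of these genes did the groups overlap. Tlr9, the receptor for unmethylated CpG DNA, was scarce, with 4.29 to 15.1 normalized counts in tdTOMATO+ colonies and 4.82 to 12.6 in tdTOMATO- colonies. The other endosomal receptor, Tlr3, is described with the broad members.

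No surface Toll-like receptor was called with limma, whereas 1 of their partners was. Cd180 (RP105), a receptor that lacks a signalling domain and modulates TLR4, had 756, 779.5 and 678 normalized counts in tdTOMATO+ colonies, against 394, 389 and 332 in tdTOMATO- colonies, a log2 fold change of 0.99 ± 0.11 (SE, adjusted p = 0.0135). Ly86 (MD-1), which binds Cd180, had 209, 207 and 299 normalized counts in tdTOMATO+ colonies, against 98.5, 161 and 137 in tdTOMATO- colonies, again without overlap, but its spread was wider and its adjusted p was 0.167 with limma and 0.0281 with DESeq2. Cd14, the coreceptor for lipopolysaccharide, had 919, 1079.7 and 657 normalized counts in tdTOMATO+ colonies, against 499, 497 and 510.2 in tdTOMATO- colonies, with an adjusted p of 0.0894 with limma and 0.000906 with DESeq2. Tlr2, the receptor for bacterial lipoproteins, missed the threshold with 457, 408 and 499 normalized counts in tdTOMATO+ colonies, against 326, 275 and 326 in tdTOMATO- colonies, with a log2 fold change of 0.56 ± 0.12 (SE, adjusted p = 0.0856 with limma and 0.00889 with DESeq2). Its partners Tlr1 and Tlr6 had log2 fold changes of 0.59 and 0.44, and both share part of their sequence with other genes (15.4% and 12.3% of 50-base stretches).

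The scavenger receptor Cd36, a fatty acid transporter also expressed in adipocytes and endothelium, was the only called member outside the myeloid class. It had 2654, 2635 and 1925 normalized counts in tdTOMATO+ colonies, against 1061, 1022 and 1052 in tdTOMATO- colonies, a log2 fold change of 1.19 ± 0.13 (SE, adjusted p = 0.0135). All tdTOMATO- colonies lay close together, and tdTOMATO+ replicate 3 was lower than the other two. Its call was lost without tdTOMATO+ replicate 1, tdTOMATO+ replicate 2 or tdTOMATO- replicate 2, when the log2 fold change was 1.11 to 1.17. Msr1, a scavenger receptor for modified lipoproteins, had 3539.6, 3758 and 2531 normalized counts in tdTOMATO+ colonies, against 2041, 2147 and 2404 in tdTOMATO- colonies, without overlap, and an adjusted p of 0.185 with limma and 0.0122 with DESeq2. Marco varied from 3.01 to 44.3 normalized counts in tdTOMATO+ colonies and from 3.86 to 12.6 in tdTOMATO- colonies.

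Neither the cytosolic receptors nor the Siglecs gave a call with limma. Nlrp3, the sensor of an inflammasome, had 538, 488 and 331 normalized counts in tdTOMATO+ colonies, against 269, 213 and 245 in tdTOMATO- colonies, without overlap, and an adjusted p of 0.0897 with limma and 0.00173 with DESeq2. Nod2, which detects muramyl dipeptide, was scarce, at 12.1 to 15.5 normalized counts in tdTOMATO+ colonies and 2.01 to 9.64 in tdTOMATO- colonies, again without overlap (adjusted p = 0.493). Siglec1 (sialoadhesin), a sialic acid receptor of tissue macrophages, had 1329, 1543 and 1349 normalized counts in tdTOMATO+ colonies, against 661, 942 and 1309 in tdTOMATO- colonies. The lowest tdTOMATO+ colony lay barely above the highest tdTOMATO- colony, and the adjusted p was 0.399. Siglecg, known mainly from B cells, had 357, 761 and 425 normalized counts in tdTOMATO+ colonies, against 390.4, 368 and 399.9 in tdTOMATO- colonies, with tdTOMATO+ replicate 2 far above the rest.

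**Figure D2:**
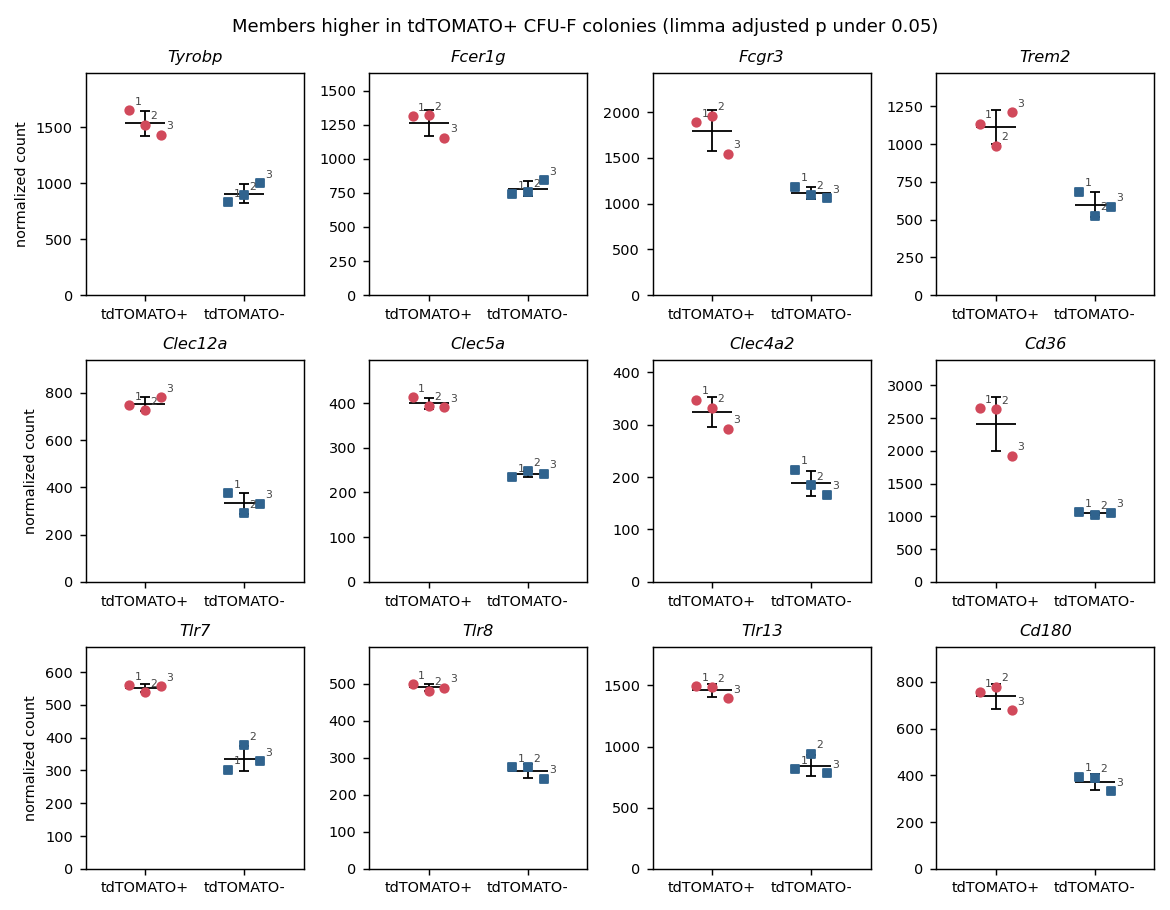
Normalized counts (y axis, from 0) of the 12 called members in each colony, with the replicate number beside each point. Horizontal lines are means and bars are SD (n = 3 per group). The groups do not overlap in any panel, and the ratio of means runs from 1.62 for Fcgr3 and Fcer1g to 2.30 for Cd36.

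In GRCm38, several called members share a chromosome. On chromosome 6 are Clec5a (chr6:40574894-40585821), Clec4a2 (chr6:123106428-123143999) and Clec12a (chr6:129342691-129365303), on chromosome 1 Fcgr3 (chr1:171051174-171064935) and Fcer1g (chr1:171229572-171234365), and on the X chromosome Tlr13 (chrX:106143204-106160493), Tlr8 (chrX:167242696-167264329) and Tlr7 (chrX:167304929-167330558). The spans are those of the whole genes in GENCODE.

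Promoter sequence of the members was described as well, and its part in the differences between the colonies was not tested. RefSeq (GRCm38.p6) gave windows of 300 bases, 250 before to 50 after a start site, for 44 of the 55 members. The letters GAGGAA, the core of the purine-rich element bound by the myeloid factor PU.1 and other ETS factors, were searched on both strands (TTCCTC on the reverse), with no other motif searched that could overlap it. They were found in 63.2% of the 38 windows of myeloid members, in 25% of the 12 windows of stromal, endothelial and broad members, and in 28.3% of all 32851 windows. Of the 10 called members that had a window, 6 held a match. By window the called members had 58.3%, which is not above the share of all myeloid members. By gene the count was 22 of 31 for the myeloid members and 8446 of 27025 for all genes. Windows of 4 called myeloid members that held a match and of the stromal member Clec11a are shown to let the position of the match be compared, with matches in capitals, 5′ to 3′ along the strand of the gene.
Clec12a, chr6:129349994-129350293, plus strand: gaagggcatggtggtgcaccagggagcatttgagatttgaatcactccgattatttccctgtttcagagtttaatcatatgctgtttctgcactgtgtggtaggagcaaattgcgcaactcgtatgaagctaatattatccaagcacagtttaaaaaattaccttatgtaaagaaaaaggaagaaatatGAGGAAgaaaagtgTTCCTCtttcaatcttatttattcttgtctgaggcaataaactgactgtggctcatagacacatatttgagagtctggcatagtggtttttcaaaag
Tlr8, chrX:167264280-167264579, minus strand: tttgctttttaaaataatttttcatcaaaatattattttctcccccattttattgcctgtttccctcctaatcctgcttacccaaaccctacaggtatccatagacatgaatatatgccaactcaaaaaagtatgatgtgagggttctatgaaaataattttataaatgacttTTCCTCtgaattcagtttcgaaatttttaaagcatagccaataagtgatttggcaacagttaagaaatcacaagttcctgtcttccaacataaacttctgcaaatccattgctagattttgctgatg
Clec5a, chr6:40585756-40586055, minus strand: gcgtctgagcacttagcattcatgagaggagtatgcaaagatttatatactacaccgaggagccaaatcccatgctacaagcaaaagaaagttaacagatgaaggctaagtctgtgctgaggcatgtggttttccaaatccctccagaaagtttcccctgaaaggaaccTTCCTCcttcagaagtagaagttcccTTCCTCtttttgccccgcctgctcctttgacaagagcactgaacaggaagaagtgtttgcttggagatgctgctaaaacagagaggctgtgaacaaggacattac
Trem2, chr17:48346151-48346450, plus strand: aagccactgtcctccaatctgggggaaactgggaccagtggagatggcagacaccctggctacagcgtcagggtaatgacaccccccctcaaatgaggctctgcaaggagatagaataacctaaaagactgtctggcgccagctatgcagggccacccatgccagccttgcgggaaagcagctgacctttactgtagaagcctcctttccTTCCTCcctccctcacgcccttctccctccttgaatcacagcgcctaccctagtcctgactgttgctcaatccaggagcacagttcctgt
Clec11a, chr7:44306910-44307209, minus strand: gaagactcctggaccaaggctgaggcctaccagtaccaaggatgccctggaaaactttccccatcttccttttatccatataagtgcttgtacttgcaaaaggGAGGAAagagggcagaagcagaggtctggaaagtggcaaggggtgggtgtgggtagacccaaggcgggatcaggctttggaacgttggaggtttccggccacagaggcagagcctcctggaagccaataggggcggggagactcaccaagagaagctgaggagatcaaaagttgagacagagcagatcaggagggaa
In these 4 myeloid windows the matches begin 40 to 81 bases before the start site, with a pair in Clec12a and in Clec5a. In Clec11a the only match begins 147 bases before it. The windows shown were picked from those with a match, and positions in the others were not compared. A match of 6 letters is a description of the window and does not show that a factor binds there.

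The members known from stroma or from many cell types mostly did not pass the test. Of the 14 stromal, endothelial and broad members, 1 was called higher with limma (Cd36) and their median log2 fold change was 0.12, against 0.72 in the 39 myeloid members. With edgeR 1 and with DESeq2 2 of the 14 were called higher, Tlr2 being the second. Over all genes limma, edgeR and DESeq2 called 1.2%, 1.11% and 3.41% higher. None was called lower by limma, edgeR or DESeq2, and none fell at an unadjusted p under 0.05. The stromal member Clec11a was abundant and variable, with 2143, 1481 and 2645 normalized counts in tdTOMATO+ colonies, against 3259.7, 2183 and 1631 in tdTOMATO- colonies. Its groups overlapped widely and its log2 fold change was -0.16 ± 0.31 (SE, adjusted p = 0.911), with a sign that turned when tdTOMATO+ replicate 2 or tdTOMATO- replicate 1 was left out (0.07 and 0.11). Fcgrt, the neonatal Fc receptor that recycles IgG and albumin, had 2226, 2269 and 2644 normalized counts in tdTOMATO+ colonies, against 1942, 2019.6 and 2378 in tdTOMATO- colonies, a log2 fold change of 0.17 ± 0.10 (SE).

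The receptor complex for lipopolysaccharide was divided between the classes. Tlr4 itself had 1782, 1375 and 1216 normalized counts in tdTOMATO+ colonies, against 1475, 1369.9 and 987 in tdTOMATO- colonies, a log2 fold change of 0.19 ± 0.20 (SE, adjusted p = 0.787), and Ly96 (MD-2), which completes the binding site for lipopolysaccharide, had 153, 151 and 146 normalized counts in tdTOMATO+ colonies, against 129, 157 and 146 in tdTOMATO- colonies, a log2 fold change of 0.06 ± 0.14 (SE). Both overlapped between the groups, while Cd14, given above, did not. Myd88, the adaptor of most Toll-like receptors, was the only member in which every tdTOMATO+ colony lay below every tdTOMATO- colony, against 8.33% of all genes, with 911, 887 and 867 normalized counts in tdTOMATO+ colonies, against 986, 1042 and 932 in tdTOMATO- colonies. The difference of -0.15 ± 0.074 (SE) on the log2 scale did not pass (adjusted p = 0.478), and 11.3% of its exons overlap the gene Acaa1a. Tlr3, a receptor for double-stranded RNA, had 322, 441 and 437 normalized counts in tdTOMATO+ colonies, against 345, 399 and 391 in tdTOMATO- colonies.

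Further broad members varied within a group. Tlr5, the receptor for flagellin, had 342, 332 and 404 normalized counts in tdTOMATO+ colonies, against 276, 103 and 374 in tdTOMATO- colonies, tdTOMATO- replicate 2 being far below the rest (adjusted p = 0.640). Nod1 had 244, 196 and 236 normalized counts in tdTOMATO+ colonies, against 173, 205 and 349.8 in tdTOMATO- colonies, with tdTOMATO- replicate 3 the highest. Clec2d, a ligand of an NK cell receptor that also inhibits osteoclast formation, had 495, 385 and 536 normalized counts in tdTOMATO+ colonies, against 228, 343 and 424 in tdTOMATO- colonies, a log2 fold change of 0.54 ± 0.24 (SE, adjusted p = 0.432). Clec16a, which carries the family name but acts in autophagy, varied little, at 689.5 to 766 normalized counts in tdTOMATO+ colonies and 698 to 758 in tdTOMATO- colonies. The endothelial members were scarce. Clec14a had 42.3, 43.7 and 14.1 normalized counts in tdTOMATO+ colonies, against 63.0, 88.7 and 25.1 in tdTOMATO- colonies, and Cd300lg had 6.03 to 29.9 in tdTOMATO+ colonies, against 6.75 to 20.6 in tdTOMATO- colonies.

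**Figure D3:**
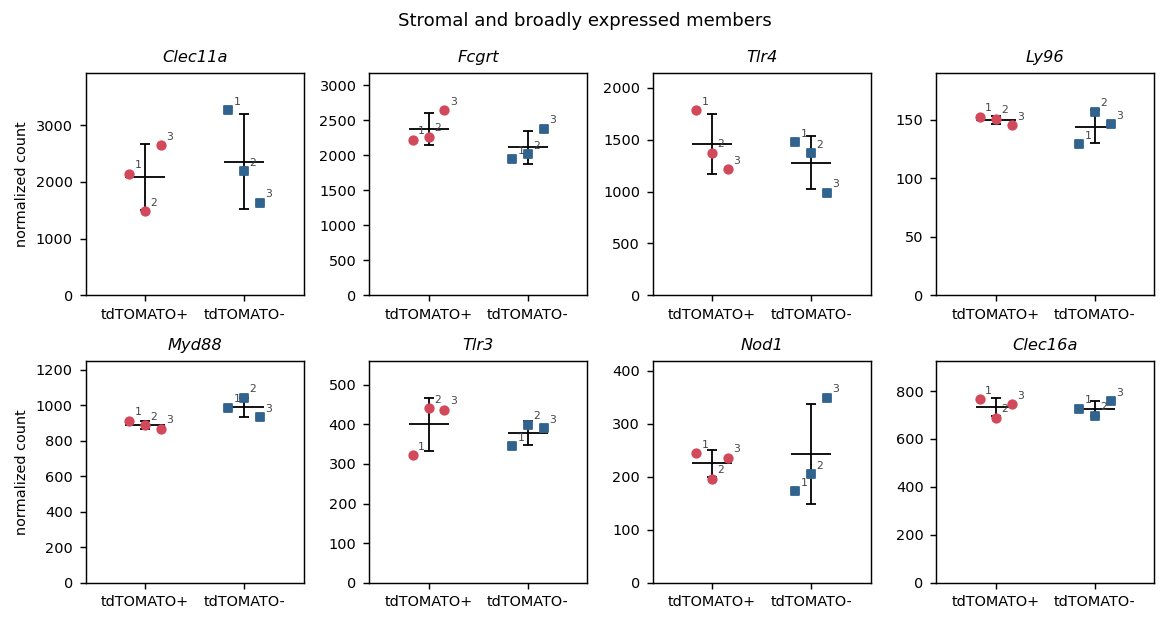
Normalized counts (y axis, from 0) of 8 stromal or broad members in each colony, drawn with means and SD (n = 3 per group) and replicate numbers. The groups overlap in all of them except Myd88, where the tdTOMATO+ colonies lie at 867 to 911 and the tdTOMATO- colonies at 932 to 1042.

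To set the members against macrophage RNA, the mean log2 level of the 10 macrophage markers was subtracted in each colony and the fit repeated. On this scale a gene that does not differ between the groups takes a negative value, and 76.5% of all genes were called lower and 0.258% higher. Of the 39 myeloid members 1 was called in each direction, and their median difference was -0.15. Clec12a remained higher than the markers, by 0.31 (limma adjusted p = 0.0293, a call lost without tdTOMATO+ replicate 1, tdTOMATO+ replicate 2 or tdTOMATO- replicate 2), and Clec4n was lower, by a log2 difference of -0.72 (adjusted p = 0.0231). Of the 14 stromal, endothelial and broad members 10 were called lower, among them Myd88 (-1.02), Clec16a (-0.86), Fcgrt (-0.70), Tlr3, Tlr4, Ly96, Nod1, Tlr2, Clec11a and Clec14a. Cd36 had 0.32 on this scale, with an adjusted p of 0.0838. Clec2g, a lectin-like member of neither class, accounted for the rest of the 12 members called lower. That a member was not called here does not show that it equals the markers.

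Within the tdTOMATO+ group, replicate 3 stood apart for some myeloid members. Of the same 31 myeloid members with a mean of 50 or more, 10 were under 0.75 times the mean of replicates 1 and 2 in replicate 3, against 1 in each of replicates 1 and 2 set against their own pair, and 3, 3 and 4 in tdTOMATO- replicates 1, 2 and 3. The 10 were Cd300e, Cd300lf, Clec4e, Cd300ld, Clec4n, Nlrp3, Cd14, Clec7a, Msr1 and Cd300lb, at 0.43 to 0.72 times the mean of the other two colonies. In Cd14 replicate 3 had 657 normalized counts, against 919 and 1079.7 in replicates 1 and 2, and in Cd300ld it had 876, against 1528 and 1533. The macrophage markers did not follow, with a median ratio of 1.03 in the same colony (0.90 to 1.31), nor did Clec12a and Tlr8, with ratios of 1.06 and 1.00. Without this colony Cd14, Nlrp3, Msr1 and Cd300ld were called with limma, while Clec4a2, Clec5a, Tlr7 and Trem2 were not. This grouping was chosen after the values were seen and carries no test. The share of all genes under 0.75 in each colony was not counted, so whether the fall is particular to these members was not tested.

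**Figure D4:**
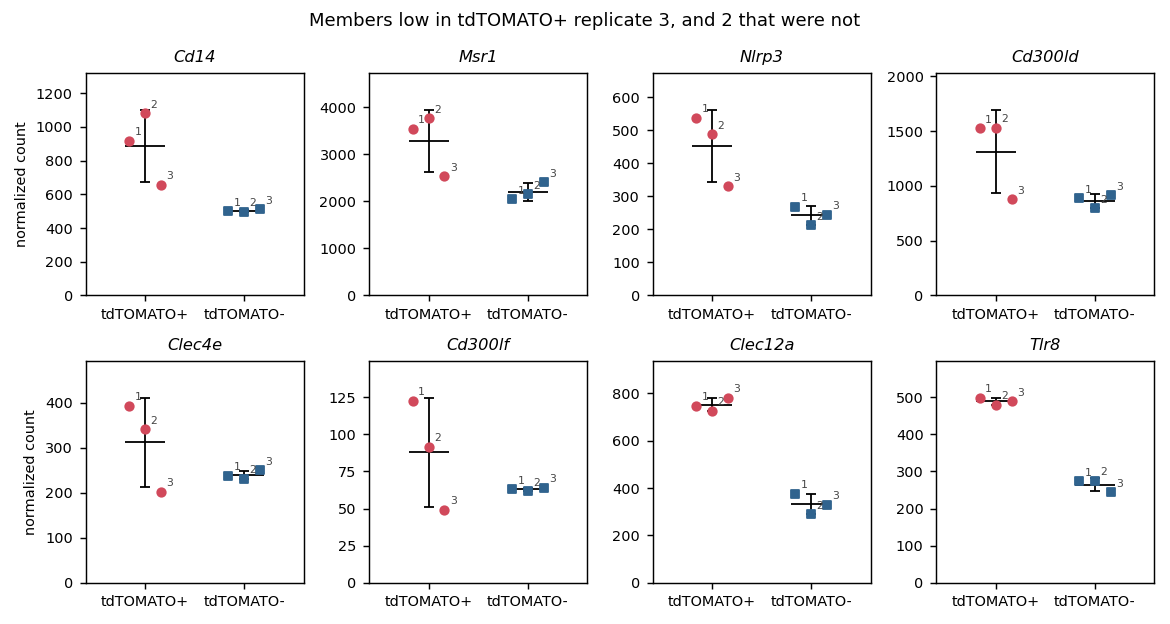
Normalized counts (y axis, from 0) per colony of 6 members that were low in tdTOMATO+ replicate 3, with Clec12a and Tlr8 for comparison, drawn with means and SD (n = 3 per group). In Cd300ld, Clec4e and Cd300lf the point of replicate 3 falls among or below the tdTOMATO- colonies, and in Cd14, Msr1 and Nlrp3 it stays above them.

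Downstream genes of the same receptors were read from a list of 63 measured genes, of which 9 were called higher and 0 lower with limma, against 1.2% and 0.143% of all genes. With edgeR 9 and with DESeq2 16 were called higher and 0 lower, against 1.11% and 3.41% of all genes called higher, and at an unadjusted p under 0.05 with limma 1 gene, Nos2, was lower. Without tdTOMATO+ replicate 1, tdTOMATO+ replicate 2 or tdTOMATO- replicate 2 no gene of the list was called (0 of 63), and without tdTOMATO- replicate 3 the number was 5. The median log2 fold change of the list was 0.27. Relative to the macrophage markers it was -0.60, with 0 genes called higher and 36 lower, against 0.258% and 76.5% of all genes. Calls were most frequent in ITAM and lectin signalling, with 5 of 13, and all 13 had a log2 fold change above 0. Among the uncalled were Lyn, Malt1 and Bcl10, with log2 fold changes of 0.34, 0.14 and 0.07. Relative to the macrophage markers 0 of the 13 were called higher and 4 lower. Lat2, a membrane scaffold, had 623, 545 and 512 normalized counts in tdTOMATO+ colonies, against 316, 308 and 285 in tdTOMATO- colonies, and Blnk, Plcg2, Vav1 and Btk, which act with it below the kinase Syk, had log2 fold changes of 0.99, 0.62, 0.85 and 0.76. Syk itself had 1181, 1362 and 1084 normalized counts in tdTOMATO+ colonies, against 887, 795 and 805 in tdTOMATO- colonies, and lay just short of the threshold (adjusted p = 0.0553). Among the phosphatases recruited by inhibitory receptors, Ptpn6 (SHP-1) had 724, 695 and 724 normalized counts in tdTOMATO+ colonies, against 396, 394 and 351 in tdTOMATO- colonies, and Inpp5d (SHIP-1) had 1196, 1039 and 1142 normalized counts in tdTOMATO+ colonies, against 635, 663 and 628 in tdTOMATO- colonies, both called (adjusted p = 0.0135 each), whereas the ubiquitous Ptpn11 (SHP-2) had a log2 fold change of -0.04.

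The shared Toll-like receptor pathway gave fewer calls. Of 13 TIR adaptors and kinases only Pik3ap1, an adaptor between these receptors and PI3-kinase, was called, with 821, 896 and 803 normalized counts in tdTOMATO+ colonies, against 465, 469 and 536 in tdTOMATO- colonies. Irak1, Map3k7, Tab2 and Tirap had log2 fold changes of -0.01, 0.04, 0.05 and -0.05. None of the 12 NF-kB and IRF factors was called with limma or edgeR, with 2 at an unadjusted p under 0.05 and 2 called with DESeq2. Over all 14735 genes 1816 had an unadjusted p under 0.05 with limma, in either direction, and DESeq2 called 3.41% higher. Ctss, a protease that cleaves endosomal receptors, rose by 0.76 ± 0.087 (SE, adjusted p = 0.0135), with 3464, 3178 and 3925 normalized counts in tdTOMATO+ colonies, against 2006, 2132 and 2062 in tdTOMATO- colonies, while Unc93b1, which carries these receptors to the endosome, had a log2 fold change of 0.42 (adjusted p = 0.138). None of the 7 inflammasome genes and none of the 7 response genes was called with limma or edgeR. At an unadjusted p under 0.05 stood 2 and 1 of them, and with DESeq2 1 and 0 were called. Tnf, Il6, Ptgs2 and Ccl2 overlapped between the groups, and Nos2 was scarce, with 3.01 to 6.00 normalized counts in tdTOMATO+ colonies and 12.0 to 13.7 in tdTOMATO- colonies (adjusted p = 0.227).

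The calls lie near the threshold, the 12 members having limma adjusted p-values of 0.0135 to 0.0465. The number of members called higher was 0 without tdTOMATO+ replicate 1, 0 without tdTOMATO+ replicate 2 and 12 without tdTOMATO+ replicate 3, of which 8 are among the 12 called with all colonies. It was 12 without tdTOMATO- replicate 1, 2 without tdTOMATO- replicate 2 and 8 without tdTOMATO- replicate 3. The log2 fold changes of the 12 stayed between 0.62 and 1.34 whichever colony was left out, and 23 to 29 of the 55 members then had an unadjusted p under 0.05 with a higher level in tdTOMATO+ colonies. With all colonies 27 members had an unadjusted p under 0.05, against 1816 of all 14735 genes in either direction. With limma run without its mean-variance trend, 0 members were called and 26 had an unadjusted p under 0.05. With 3 colonies a group, no exact permutation test could fall below p = 0.1. With 12, 12 and 22 of 55 members called higher by limma, edgeR and DESeq2, against 1.2%, 1.11% and 3.41% of all genes, the share among the members was above that of the whole table with each tool.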

How the data were processed

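Bulk RNA-seq of 6 CFU-F colonies was used, 3 tdTOMATO+ and 3 tdTOMATO-, as GEO's labels group them. The methods name TrimGalore for trimming, STAR for alignment to GRCm38 with uniquely placed reads retained, and HTSeq for counting. Genes whose highest library had fewer than 10 reads were dropped by the authors, who then scaled with DESeq2. Versions and the strand setting are not given in the sources used here. The deposited signal is a count per gene after this scaling. The table also holds 5 columns of the authors' own comparison, which were not used.

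Values in each library were whole multiples of a single step (100% within a tolerance of 0.001), so reads were recovered for edgeR (4.0.16) and DESeq2 (1.42.0). For replicate 3 of each group this rests on a step close to 1. The main test was limma (3.58.1, under R 4.3.3, eBayes run with a trend and the robust option) on log2(normalized count + 1), two-sided, with Benjamini-Hochberg adjustment over 14735 genes. A fold change on this scale understates that of scarce genes. The methods were tested on simulated data in which each gene varied independently and changes were planted in genes drawn at random. Shifts shared by many genes were not simulated, so that test does not bear on them. Alternatives were edgeR, DESeq2, limma with TMM or without trend, pseudocounts of 0.5 and 5, a filter at a mean of 10, a replicate block and each colony left out. Relative differences subtract the mean log2 level of 10 macrophage markers per colony.

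Named are the called members, the most abundant member of each role, the stromal, endothelial and broad members, the 5 largest differences that missed the threshold and the called signalling genes. Others are named to complete a family, chosen after their values were seen. Members, classes and lists were chosen with earlier results of these data known. Marker lists for dendritic cells, mast cells and basophils, megakaryocytes and endothelium gave 0 calls with limma, edgeR or DESeq2, of 3, 1, 3 and 4 measured genes, neutrophil markers 0 of 2 and B cell markers 0 of 1. At an unadjusted p under 0.05 with limma stood 1 dendritic, 1 megakaryocyte and 1 B cell marker, against 1816 of all 14735 genes. Pan-leukocyte genes gave 5 of 5 higher with each tool, against 1.2%, 1.11% and 3.41% of all genes. With limma 0 of them were called without tdTOMATO+ replicate 1, tdTOMATO+ replicate 2 or tdTOMATO- replicate 2, and 4 to 5 without any other colony. With limma run without its trend, 0 were called. Lengths and shared 50-base stretches are from GENCODE for GRCm38, and promoters from RefSeq GRCm38.p6.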

Additional observations from a re-analysis of the deposited data

How the results depend on the processing

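With limma without the mean-variance trend, 0 members, 0 myeloid members, 0 stromal, endothelial and broad members and 0 signalling genes were called higher, 26 members then having an unadjusted p under 0.05, and among all genes 1 was called higher and 0 lower. With DESeq2 these counts were 22, 20, 2 and 16, and 502 genes were called higher and 166 lower, against 177 and 21 with limma. Leaving out each colony in turn gave 0 to 12 members, 0 to 11 myeloid members, 0 to 1 stromal, endothelial and broad members, 0 to 8 signalling genes, and 1 to 178 genes higher and 0 to 44 lower over the table. Relative to the macrophage markers, 0 to 1 members were higher and 9 to 13 lower. The cause was not tested, though fits without a colony hold fewer samples. The sign with single colonies left out was followed in 33 members, those named by the stated rule. It turned for Cd300lg (-0.17 to 0.89), Clec11a (-0.39 to 0.11), Clec16a (-0.0205 to 0.0553), Ly96 (-0.0183 to 0.121), Nod1 (-0.25 to 0.25) and Tlr3 (-0.00933 to 0.217), none of them called. The other members were not checked for this. Under TMM, other pseudocounts, the filter and edgeR all 12 called members kept their call.

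Correlations of deviations from group means, with 3 colonies a group, cannot decide whether replicate numbers pair the colonies. Same-numbered colonies correlated at 0.084, 0.008 and 0.164, and differently numbered ones at -0.139 to 0.064. For tdTOMATO+ replicates 1 and 3 the same number gave the highest value. By contrast, tdTOMATO+ replicate 2 correlated more with tdTOMATO- replicate 1 (0.047) than with its own number. With the replicate number as a block, 10 members were called higher, 9 of them among the 12. Clec4a2, Clec5a and Tlr7 lost their call and Cd300lb gained one (adjusted p = 0.0357). The block gave 9 myeloid members, 1 broad member, 9 signalling genes, and 124 genes higher and 24 lower over the table. Depth limits the scarce members, such as Nod2, Tlr9 and Clec4b1, where 15.5 normalized counts or fewer leave a wide counting error.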
